A study of Homo sapiens with 24 samples.

Results

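The comparison described here is that of LUHMES aggregates exposed to 50 nM rotenone for 24 h with aggregates exposed to the vehicle DMSO, both collected on day 8 of differentiation. The members were chosen by the titles of the samples, which gave 3 arrays with 50 nM rotenone for 24 h and 3 arrays with DMSO, or 6 of the 24 arrays of the series. LUHMES is a conditionally immortalized human cell line derived from the mesencephalon that is differentiated into dopaminergic neuron-like cells, here as free-floating aggregates (3D culture). All samples came from this single cell line, and no genotype differed between groups. The other groups of day 8, also with 3 arrays each, received rotenone either at 50 nM over 12 h or at 100 nM over 24 h. DMSO and the same exposures were also sampled on day 15, after the compound had been washed out and the aggregates had been kept for 7 days. The labels of the DMSO samples give the day but no exposure time. The arrays were Agilent 60K single-color expression arrays on 3 slides, each of which carried 1 array of every group, so that the slide number is the replicate number. Nothing states that the 3 samples of a group were separate cultures. The p values rest on a spread between samples pooled over all 24 arrays and 8 groups, which may be technical.

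Rotenone, a plant-derived insecticide, blocks complex I of the mitochondrial respiratory chain, the entry point for electrons from NADH. A neuron whose complex I is blocked makes less ATP by respiration, draws more on glycolysis and can produce more superoxide. Midbrain dopaminergic neurons are known for their sensitivity to such inhibitors, which is why rotenone is used to model aspects of Parkinson's disease. Cells with impaired mitochondria are known to shift the transcripts of sugar uptake, amino acid supply and lipid synthesis through factors such as MondoA, ATF4 and SREBP2, and the genes below are ordered by these roles. The comparison answers which transcripts differ at the end of a low, short exposure.

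Between 51.6% and 68.3% of spots were well above background on the 6 arrays, and the values of arrays within a group correlated at 0.974 to 0.989 across genes. These shares followed the slide (67.3% to 68.3% on slide 1, whose arrays the labels mark as repeated, 56.0% to 56.9% on slide 2 and 51.6% to 54.0% on slide 3), and the slide was kept as a block. In each slide the DMSO array had one fixed position and the rotenone array another, so that position and exposure cannot be told apart. All 8 neuronal markers were well above background on all 6 arrays, as were 7 of 10 dopaminergic markers, although the vesicular monoamine transporter SLC18A2 was so on none. Of the progenitor markers 5 of 6 were detected on all 6 arrays, with SOX2 on none. Glial markers were mostly dim: 1 of 6 astrocyte, 2 of 4 oligodendrocyte and 0 of 5 microglia markers were well above background on all 6 arrays, and GFAP and AQP4 on none. The log2 of the summed signals of the astrocyte markers was 7.10 to 7.51 in DMSO and 6.81 to 7.26 with rotenone. For oligodendrocyte markers it was 6.80 to 7.53 and 6.95 to 7.61, and for microglia markers 6.25 to 6.52 and 6.31 to 6.63.

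Of 21344 genes tested, 602 (2.82%) changed at a fold change (FC) over 1.5 with p (adjusted) under 0.05 in limma. Of these, 294 (1.38%) were upregulated and 308 (1.44%) downregulated. Most changes were small: the median size of the called changes was 0.73 on the log2 scale, 101 genes passed an FC of 2 (44 up and 57 down) and 5 passed an FC of 4. All 602 had the same sign on the 3 slides, which 45.1% of all genes had. For 570 of them (94.7%) the 3 DMSO arrays and the 3 rotenone arrays did not overlap, as was so for 18.1% of all genes. The genes were called on these same arrays, so both counts largely follow from the call and add no support to it. The called genes comprised 527 protein-coding genes and 56 long noncoding RNAs. The balance of directions depended on the scaling: with the signal as processed by the scanner software, scaled to the 75th percentile, 885 genes were called, 60.6% of them up, against 48.8% here. In these bulk samples, fewer cells that express a gene and less of its RNA per cell cannot be told apart.

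**Figure D1:**
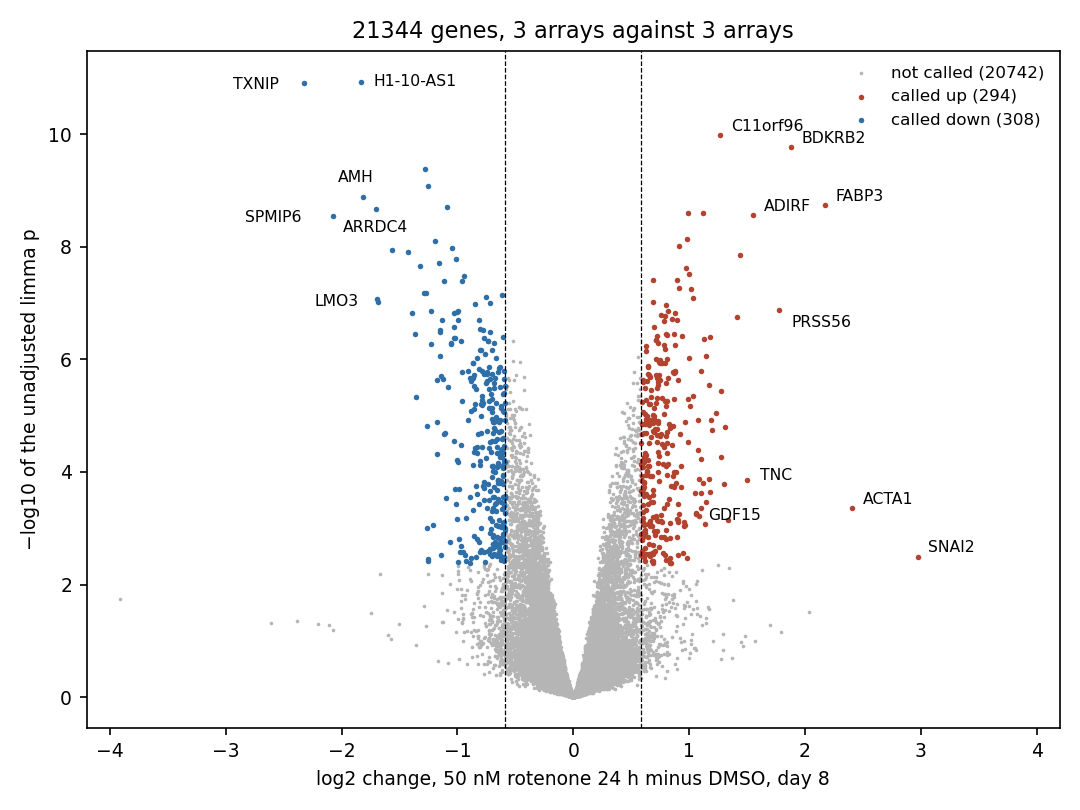
Volcano plot of 50 nM rotenone for 24 h against DMSO on day 8, with the log2 change on the x axis, −log10 of the unadjusted limma p on the y axis and 1 point per gene. Dashed lines mark an FC of 1.5; the 294 genes called up are red and the 308 called down are blue, and TXNIP and H1-10-AS1 have the smallest p values.

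The glucose-responsive alpha-arrestins TXNIP and ARRDC4 were both downregulated. Thioredoxin-interacting protein (TXNIP) binds thioredoxin and removes glucose transporters from the cell surface, and ARRDC4 is a relative with a similar part in glucose uptake. Both are known targets of MondoA and its partner MLX, which bind pairs of E-box-like sequences called carbohydrate response elements. TXNIP had normalized log2 signals of 12.61, 12.38 and 12.15 on the DMSO arrays of slides 1, 2 and 3 and 10.06, 10.04 and 10.07 on the rotenone arrays. The groups were far apart, with all rotenone arrays close to one another. The change was -2.32 on the log2 scale (SE 0.14), or 5.01-fold lower (adjusted p = 1.31e-07). ARRDC4 had 7.71, 7.90 and 7.74 in DMSO and 5.75, 6.24 and 6.25 with rotenone, again without overlap, and was 3.25-fold lower (log2 change -1.70 ± 0.14, adjusted p = 4.25e-06). The other 6 tested members of the list of alpha-arrestins and MondoA partners were not called. Among them, ARRDC3 was at 0.45 (adjusted p = 0.261), MLXIP, which encodes MondoA, at 0.40 (adjusted p = 0.0204) and MLX at -0.14 (adjusted p = 0.416).

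The promoters of both genes are shown because their sequences bear on this pair: 250 bases before the start, on the strand of the gene, from RefSeq on GRCh38.p14. For TXNIP, of which the table lists 2 starts, the one with a motif is given (chr1:145996580-145996829, minus strand), and ARRDC4 lies at chr15:97960453-97960702 on the plus strand. Capitals mark the motifs found.
TXNIP: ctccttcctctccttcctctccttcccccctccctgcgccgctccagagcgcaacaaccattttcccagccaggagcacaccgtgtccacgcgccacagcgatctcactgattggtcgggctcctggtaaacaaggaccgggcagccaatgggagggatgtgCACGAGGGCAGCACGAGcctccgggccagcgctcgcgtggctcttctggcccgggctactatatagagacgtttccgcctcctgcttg
ARRDC4: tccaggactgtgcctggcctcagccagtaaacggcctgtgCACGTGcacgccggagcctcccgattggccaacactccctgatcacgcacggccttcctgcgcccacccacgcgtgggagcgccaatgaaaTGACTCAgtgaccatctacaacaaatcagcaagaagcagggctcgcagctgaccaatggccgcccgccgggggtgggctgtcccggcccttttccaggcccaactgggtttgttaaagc
In TXNIP the capitals are the pattern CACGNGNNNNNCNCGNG, a pair of E-box-like sites spaced as in a carbohydrate response element, which began 88 bases before the start. In ARRDC4 they are the E-box CACGTG at 210 and the AP-1 site TGACTCA at 119 bases before it. The paired pattern was found, on either strand, before 1.64% of the genes called down, 0.897% of those called up and 0.734% of all genes tested, counting the 244, 223 and 16205 genes with a promoter in the table. It was added after the sequence of TXNIP had been read, so its presence there is no result. Only 4 genes called down held the pattern, TXNIP among them, and 2 called up, so no difference is read from these shares. The single E-box, which may form part of the pair, was found before 11.1% of the genes called down, 13.9% of those called up and 9.45% of all genes tested. The AP-1 site was found before 6.56%, 4.04% and 4.76%, and the CRE site TGACGTCA, also searched, before 4.51%, 3.59% and 2.71%. These matches describe letters, not binding.

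Besides these 2 genes, the largest decreases among genes measured on all 6 arrays were those of SPMIP6, a microtubule inner protein of sperm flagella, the noncoding RNA H1-10-AS1, and AMH, the anti-Müllerian hormone. SPMIP6 had 8.93, 8.68 and 8.95 in DMSO and 6.65, 6.53 and 7.15 with rotenone and was 4.22-fold lower (log2 change -2.08 ± 0.18, adjusted p = 4.25e-06). H1-10-AS1 had 8.58, 9.13 and 9.15 in DMSO and 6.89, 7.398 and 7.08 with rotenone (-1.83 ± 0.11, adjusted p = 1.31e-07). AMH had 7.77, 8.65 and 8.37 in DMSO and 6.29, 6.57 and 6.49 with rotenone (-1.81 ± 0.15, adjusted p = 3.94e-06). In each case every rotenone array was below every DMSO array. LMO3, a LIM-only cofactor of transcription in the nervous system, went from 8.81, 9.67 and 9.15 to 6.99, 7.67 and 7.89, a 3.23-fold decrease (-1.69 ± 0.19, adjusted p = 4.71e-05), with no overlap although DMSO differed between slides. The others of the 12 largest decreases were SCML4, a Polycomb group relative (-1.68 ± 0.19), the atypical chemokine receptor ACKR1 (-1.56 ± 0.15), LY6G5C of the Ly6 family (-1.43 ± 0.14), BRINP3, a neural protein induced by retinoic acid and BMP (-1.37 ± 0.17), LRRC66 (-1.36 ± 0.20) and TRAIP, a ubiquitin ligase of the replication stress response (-1.29 ± 0.14). Their adjusted p values were between 1.3e-05 and 0.000493.

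Upregulated genes included a lipid carrier, a peptide receptor, a muscle actin and matrix genes. FABP3, the heart-type carrier of long-chain fatty acids, rose 4.51-fold, from 7.42, 7.24 and 7.38 in DMSO to 9.36, 9.76 and 9.43 with rotenone (log2 change 2.17 ± 0.18, adjusted p = 4.25e-06). Its lowest rotenone array was well above its highest DMSO array, and with the spot of 1 array whose local background was marked an outlier set to missing the change was 2.13. BDKRB2, the bradykinin B2 receptor, rose 3.67-fold, from 8.24, 8.08 and 8.33 to 10.16, 10.05 and 10.07 (1.88 ± 0.13, adjusted p = 9.04e-07). The serine protease gene PRSS56 rose 3.43-fold, from 8.67, 8.66 and 8.64 to 10.44, 10.40 and 10.47 (1.78 ± 0.20, adjusted p = 6.19e-05). For both genes the arrays within a group lay close together and the groups did not overlap. ACTA1, the skeletal muscle alpha-actin, varied more, with 8.97, 10.45 and 9.46 in DMSO and 11.93, 11.56 and 12.61 with rotenone, yet did not overlap. Its change was 2.41 (SE 0.55, adjusted p = 0.0109), and the call was lost without 50 nM replicates 1 or 3 or DMSO replicates 1 or 3 (2.18 to 2.26). Here and below, the value in parentheses after a left-out array is the log2 change without it, for which either the FC no longer passed 1.5 or the adjusted p was no longer under 0.05.

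The largest estimate, that of SNAI2 (Slug), a repressor of epithelial genes, rested on 1 DMSO array. SNAI2 had 5.43, 5.07 and -0.56 in DMSO and 6.20, 6.51 and 6.16 with rotenone. Its spot on the DMSO array of slide 3 had a local background marked as an outlier by the scanner software. With that value the change was 2.97 (SE 0.86, adjusted p = 0.0409), and with it set to missing 1.29 (adjusted p = 0.0588), which is not a call. The call was also lost without 50 nM replicates 1, 2 or 3 or DMSO replicate 3 (1.29 to 3.29). Of all 602 called genes, 8 had such a mark on any of the 6 arrays.

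Further genes among the 12 largest increases were ADIRF, a small protein of adipocyte differentiation (1.55 ± 0.13), TNC, the matrix glycoprotein tenascin C (1.504 ± 0.30), NKD2, a Dishevelled-binding inhibitor of Wnt signaling (1.44 ± 0.14), the tight junction protein CLDN4 (1.34 ± 0.32), the neuronal endopeptidase gene ECEL1 (1.28 ± 0.19), MIR7-3HG, a host transcript of miR-7 (1.27 ± 0.24), and C11orf96 (1.27 ± 0.09). TNC had 8.42, 8.10 and 8.73 in DMSO and 10.05, 9.95 and 9.76 with rotenone, and C11orf96 had 9.64, 9.58 and 9.72 and 10.77, 10.97 and 11.01. Neither gene overlapped between groups. The adjusted p values of these 7 genes were between 7.23e-07 and 0.0151, the highest that of CLDN4, whose call was lost without 50 nM replicates 2 or 3 or DMSO replicate 1 (1.16 to 1.29).

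**Figure D2:**
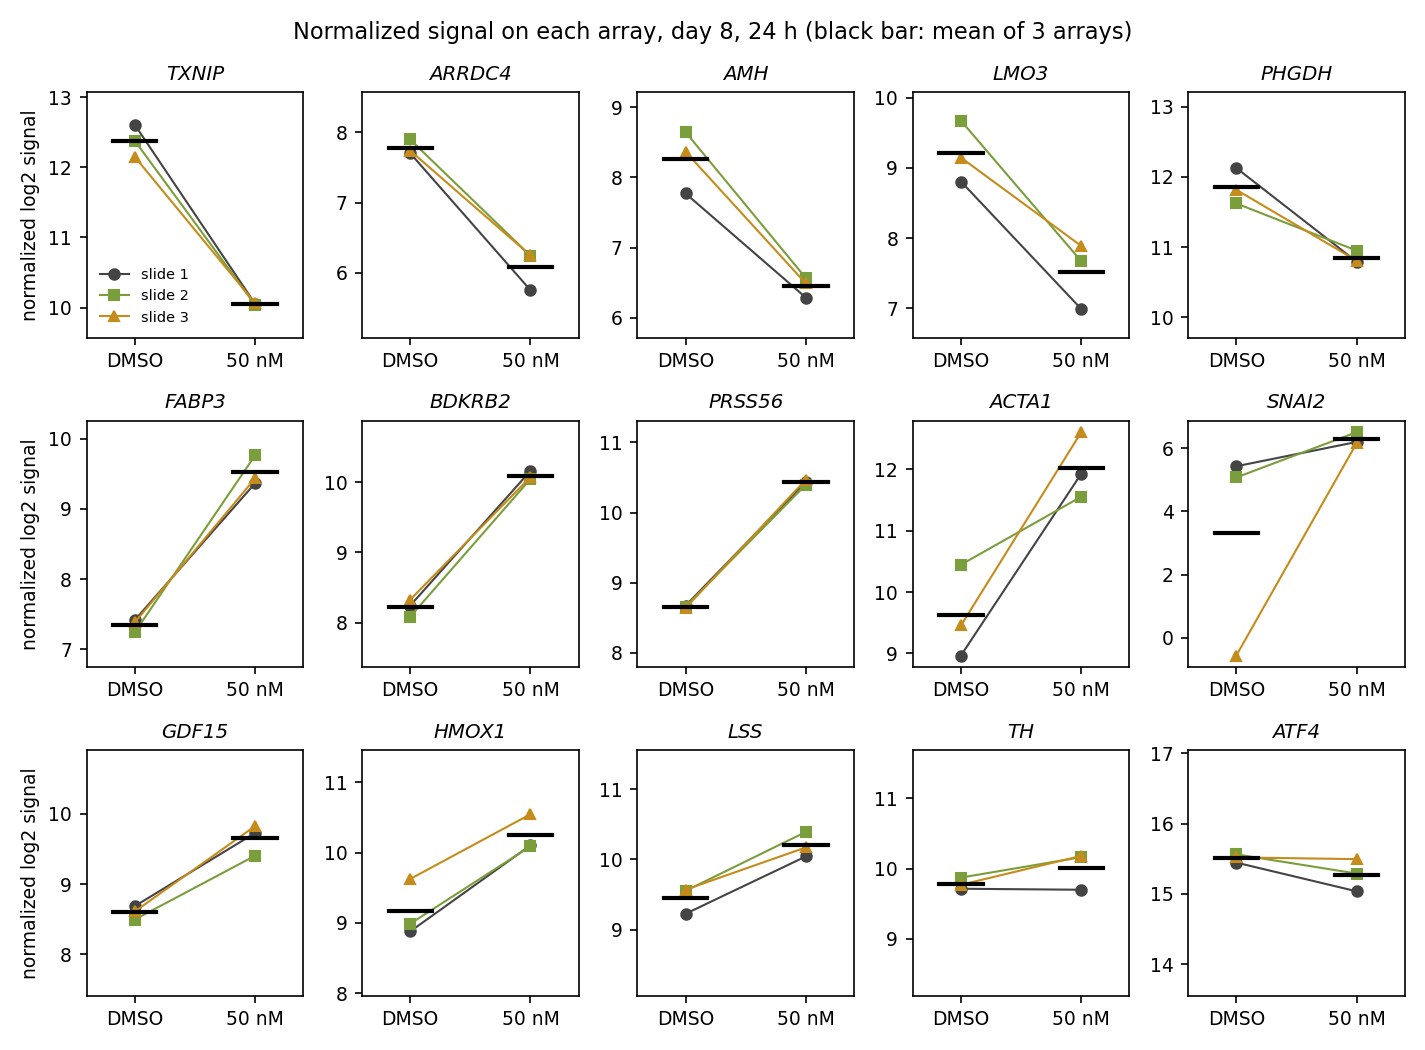
Normalized log2 signal of 15 genes on the 3 DMSO and the 3 rotenone arrays of day 8, with lines joining the arrays of a slide and black bars for the means of 3 arrays. TXNIP, ARRDC4, FABP3, BDKRB2 and PRSS56 separate the groups widely, ACTA1 and SNAI2 vary more within DMSO, and ATF4 and TH overlap between groups.

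Some called genes were measurable in 1 group only. The fold given is set against the lowest signal well above background or the dim probe's own value, whichever was higher. Where the probe's own value was higher, this bound is the estimated fold itself and no lower limit. LRRN4CL, a leucine-rich repeat protein, was measured on all 3 DMSO arrays and on no rotenone array and was an estimated 2.4-fold lower. CFAP52, a protein of motile cilia, was called down but was well above background on 1 DMSO array only, so that no fold is given. The pseudogenes MARK2P21 and LRRC77P were an estimated 1.98-fold and 1.93-fold lower. Of these 4, only LRRN4CL was called whichever of the 6 arrays was left out: CFAP52 was lost without 50 nM replicate 3 or DMSO replicates 2 or 3 (-1.10 to -0.86), MARK2P21 without 50 nM replicates 1 or 3 or DMSO replicate 1 (-1.004 to -0.67) and LRRC77P without 50 nM replicates 1 or 2 or DMSO replicates 1, 2 or 3 (-0.98 to -0.67). In the other direction, the noncoding RNA CYTOR was measured on all 3 rotenone arrays and no DMSO array and was an estimated 1.77-fold higher. C20orf203 and ARHGAP8 were called up but were measured on 1 rotenone array each and on no DMSO array, so that no fold is given. PRKCQ-AS1 was measured on all 3 rotenone arrays and was an estimated 1.73-fold higher. Here C20orf203 kept its call in each omission, whereas CYTOR lost it without 50 nM replicate 2 or DMSO replicate 3 (0.62 to 0.73), ARHGAP8 without 50 nM replicate 2 or DMSO replicate 2 (0.95 to 0.98) and PRKCQ-AS1 without 50 nM replicates 1, 2 or 3 or DMSO replicates 2 or 3 (0.56 to 0.89). In all, 12 downregulated genes had no probe well above background with rotenone and 6 upregulated genes none in DMSO.

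Among 37 lists of genes, that of cholesterol synthesis and uptake held the most calls. Cholesterol is made from acetyl-CoA through mevalonate and squalene, and its enzymes are known to be transcribed together by SREBP2 when sterols are low. Of 28 genes tested, 6 were upregulated and 1 downregulated, beside 1.38% and 1.44% of all genes. At p (adjusted) under 0.05 with any FC, 14 were higher and 1 lower (8.66% of all genes, either way). The counts of the lists below stand beside the same shares. Between groups, 18.1% of all genes and 94.7% of the called genes did not overlap. The median change was 0.39 against −0.02 over all genes, 25 of 28 were positive, and the medians within slides were 0.24, 0.48 and 0.36. The upregulated genes run from the first step to the last: ACAT2, which joins acetyl-CoA units (0.72 ± 0.10, adjusted p = 0.0003), FDFT1, squalene synthase (0.71 ± 0.09, adjusted p = 0.000119), SQLE, squalene epoxidase (0.65 ± 0.14, adjusted p = 0.00808), LSS, lanosterol synthase (0.75 ± 0.10, adjusted p = 0.000214), DHCR7, which makes cholesterol from its precursor (0.69 ± 0.08, adjusted p = 5.04e-05), and STARD4, which carries cholesterol between membranes (0.76 ± 0.13, adjusted p = 0.0017). LSS had 9.23, 9.55 and 9.57 in DMSO and 10.04, 10.39 and 10.17 with rotenone, and DHCR7 had 12.81, 12.93 and 13.06 and 13.43, 13.78 and 13.65. On every slide, rotenone was above DMSO for both genes and the groups did not overlap. The call of SQLE was lost without 50 nM replicate 2 or DMSO replicate 3 (0.57 to 0.58).

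Other enzymes of the pathway had an adjusted p under 0.05 below the FC threshold, among them HSD17B7 (0.55), IDI1 (0.52), CYP51A1 (0.47) and FDPS (0.36). SREBF2, which encodes the regulator SREBP2, was at 0.26 (adjusted p = 0.213). The downregulated gene was ABCA1, the exporter of cholesterol to apolipoproteins (-0.65 ± 0.13, adjusted p = 0.00534), whose call was lost without 50 nM replicate 3 (-0.57). The sterol regulatory element core TCACNCCAC was present before 2.24% of genes called up, 0% of those called down and 1.16% of all genes tested. The shares of called genes rest on 5 of 223 and 0 of 244 genes with a promoter, and this motif was not among those planned. Of the 3 upregulated cholesterol genes with a promoter in the table, 0 held it. In fatty acid synthesis and desaturation, 1 of 16 genes was upregulated and none downregulated: ACSS2, which makes cytosolic acetyl-CoA from acetate (0.77 ± 0.11, adjusted p = 0.000508). The median of that list was 0.18, with FADS1, a fatty acid desaturase, at 0.52 (adjusted p = 0.002).

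**Figure D3:**
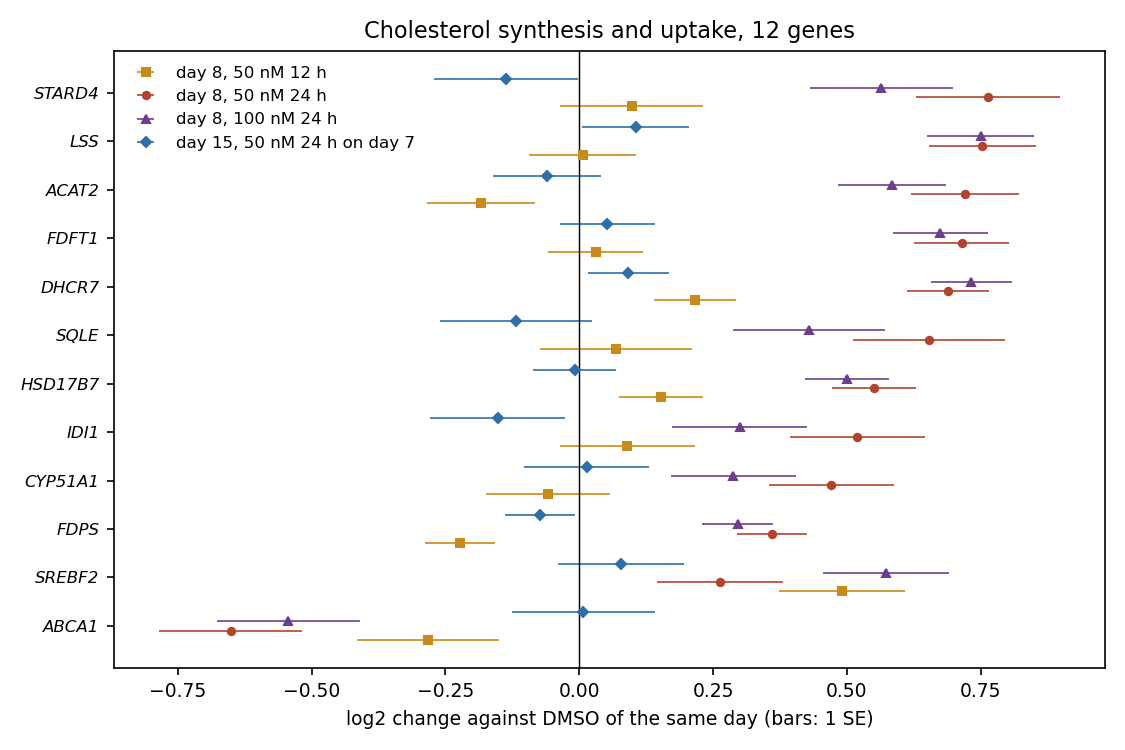
Log2 change against DMSO of the same day (x axis) of the 12 genes of cholesterol synthesis and uptake described above, on day 8 after 12 h of 50 nM, 24 h of 50 nM and 24 h of 100 nM, and on day 15 after 24 h of 50 nM; bars are 1 SE. The medians over all 28 tested genes were 0.04, 0.39, 0.32 and −0.05 in this order.

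In fatty acid binding and oxidation, 3 of 30 genes were upregulated and 0 downregulated (1.38% and 1.44% of all genes), with a median of −0.00101. Besides FABP3 these were PPARGC1B, a coactivator of mitochondrial gene programs (0.65 ± 0.12, adjusted p = 0.00322), and the brain-type carrier FABP7 (0.69 ± 0.21, adjusted p = 0.0481), which overlapped between groups and whose call was lost without 50 nM replicates 1, 2 or 3 or DMSO replicates 1, 2 or 3 (0.64 to 0.75). CPT1A, the gate of mitochondrial fatty acid import, was at 0.52 (adjusted p = 0.0176), whereas its neuronal relative CPT1C was at -0.49 (adjusted p = 0.00072) and CPT2 at -0.42 (adjusted p = 0.0228).

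Transcripts of the respiratory chain itself were not called, in lists where few calls would come from the 2.82% called over all genes. Of 37 tested nuclear subunits of complex I, the target of rotenone, 0 passed the threshold, with a median of 0.05, a lowest value of −0.34 and a highest of 0.44. At an adjusted p under 0.05 with any FC, NDUFV3 (0.44 ± 0.08, adjusted p = 0.00318) and NDUFB4 (0.43) were higher and NDUFA9 (-0.34) was lower. Likewise 0 of 38 subunits of complexes II to V were called (median 0.07), where ATP5PD of the ATP synthase had the smallest p (-0.30 ± 0.07, adjusted p = 0.0158). The mitochondrial stress and import list held 0 calls in 18 genes, and the protease OMA1, which is activated in stressed mitochondria, was at 0.43 (adjusted p = 0.0147).

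Of 30 glycolysis genes, 4 were upregulated and 0 downregulated, beside 1.38% and 1.44% of all genes, and the median was 0.03. PDK4, a kinase that inhibits pyruvate dehydrogenase, went from 6.27, 6.01 and 5.62 in DMSO to 7.04, 6.90 and 6.80 with rotenone (0.94 ± 0.27, adjusted p = 0.0368). PFKP, the platelet form of phosphofructokinase, went from 6.93, 7.33 and 7.29 to 7.92, 7.85 and 7.95 (0.72 ± 0.13, adjusted p = 0.00164). The lactate exporter SLC16A3 (0.73 ± 0.17, adjusted p = 0.015) and the aldolase ALDOC (0.59 ± 0.12, adjusted p = 0.00495) were also called. None of the 4 overlapped between groups, as was so for 94.7% of all called genes and 18.1% of all genes. The call of PDK4 was lost without 50 nM replicates 1, 2 or 3 or DMSO replicates 1, 2 or 3 (0.83 to 1.01), that of SLC16A3 without 50 nM replicates 2 or 3 or DMSO replicates 1 or 2 (0.64 to 0.72) and that of ALDOC without 50 nM replicate 2 or DMSO replicate 2 (0.45 to 0.49). The abundant enzymes GAPDH (-0.32, adjusted p = 0.131), PKM, a pyruvate kinase (-0.29, adjusted p = 0.169), and LDHA, a lactate dehydrogenase (-0.10, adjusted p = 0.742), were not called. Among hypoxia-inducible factor targets outside glycolysis, 1 of 24 was called, the ankyrin repeat gene ANKRD37 (0.78 ± 0.15, adjusted p = 0.00305).

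The integrated stress response, in which ATF4 is translated and switches on amino acid supply genes, had calls in both directions. Of 40 genes tested, 2 were upregulated and 1 downregulated, beside 1.38% and 1.44% of all genes. The median was −0.06 and was positive under 4 of 19 alternatives. GDF15, a secreted stress cytokine often raised in mitochondrial disease, rose 2.08-fold, from 8.69, 8.50 and 8.61 in DMSO to 9.73, 9.40 and 9.83 with rotenone (1.06 ± 0.25, adjusted p = 0.0127), without overlap, and was no longer called without DMSO replicate 3 (0.98). CEBPB, a leucine zipper partner of ATF4, was also upregulated (0.63 ± 0.11, adjusted p = 0.00231) but fell under the FC threshold without 50 nM replicate 3 (0.58). CHAC1, a glutathione-degrading enzyme and classical ATF4 target, fell 1.6-fold, from 8.70, 8.87 and 8.96 to 8.11, 8.29 and 8.09 (-0.68 ± 0.11, adjusted p = 0.00111). Its 2 probes gave -0.84 and, for the brighter probe, -0.52, which is under the FC threshold. The call of CHAC1 was lost with the brighter probe alone or with a background correction offset of 50. ATF4 itself had 15.45, 15.56 and 15.52 in DMSO and 15.04, 15.29 and 15.50 with rotenone, which overlapped (log2 change -0.24 ± 0.10, adjusted p = 0.167); with both scalings to the 75th percentile its sign turned, to 0.017 for the processed signal and 0.035 for the median signal. DDIT3 (CHOP) was at -0.24 (adjusted p = 0.276). Below the FC threshold, asparagine synthetase ASNS was at -0.55 (adjusted p = 0.000307) and SESN2 at -0.49 (adjusted p = 0.00768), both lower, and ATF5 at 0.41 (adjusted p = 0.0355), higher.

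The promoter of CHAC1 is shown because it holds the ATF4 element core while its transcript fell (chr15:40953221-40953470, plus strand, GRCh38.p14, RefSeq), with that core in capitals on the opposite strand, beginning 209 bases before the start.
CHAC1: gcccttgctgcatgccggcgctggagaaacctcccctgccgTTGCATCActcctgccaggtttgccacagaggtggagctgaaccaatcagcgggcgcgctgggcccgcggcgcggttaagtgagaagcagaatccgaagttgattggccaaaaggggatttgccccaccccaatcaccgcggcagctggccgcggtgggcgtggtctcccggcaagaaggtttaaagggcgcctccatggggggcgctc
The core TGATGNAA was present before 7 of the 33 ATF4 list genes with a promoter in the table (21.2%), against 3.25% of all genes tested, 4.10% of the genes called down and 3.14% of those called up. The 7 were ASNS, ATF3, CEBPG, CHAC1, FGF21, JDP2 and SLC1A5, of which CHAC1 alone was called.

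In serine synthesis and one-carbon metabolism, which supply serine, glycine and methyl groups, 1 of 19 genes was upregulated and 2 were downregulated. Over all genes the shares were 1.38% and 1.44%. PHGDH, the first enzyme of serine synthesis, fell 2.01-fold, from 12.13, 11.62 and 11.82 in DMSO to 10.79, 10.95 and 10.81 with rotenone (-1.01 ± 0.11, adjusted p = 6.19e-05), and no array of one group reached the other. The mitochondrial formyltetrahydrofolate dehydrogenase ALDH1L2 fell (-0.72 ± 0.18, adjusted p = 0.0209), a call lost without 50 nM replicates 1 or 3 or DMSO replicates 1 or 2 (-0.67 to -0.57), and the cytosolic enzyme MTHFD1 rose (0.70 ± 0.11, adjusted p = 0.000814), a change under the FC threshold without DMSO replicate 2 (0.54). The next enzymes of the serine pathway, PSAT1 (-0.19, adjusted p = 0.408) and PSPH (-0.06, adjusted p = 0.794), were not called. The list median was −0.05. None of 19 aminoacyl-tRNA synthetases was called, with CARS1 at -0.43 (adjusted p = 0.0416).

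Other stress programs had few calls, beside 2.82% of all genes (1.38% up and 1.44% down). In lists of these sizes, 0 calls or 1 call is near that share. Of 30 NRF2 targets, 2 were upregulated and 0 downregulated (median 0.10): HMOX1, heme oxygenase 1, rose 2.12-fold, from 8.88, 8.99 and 9.63 in DMSO to 10.10, 10.09 and 10.55 with rotenone (1.08 ± 0.22, adjusted p = 0.00476), and BLVRB, a biliverdin reductase, rose 1.83-fold (0.87 ± 0.13, adjusted p = 0.000522). Both take part in heme breakdown, and neither overlapped between groups. Of 31 p53 and apoptosis genes, 1 was upregulated, HRK, a BH3-only activator of neuronal apoptosis, from 9.37, 9.96 and 9.93 to 11.12, 10.44 and 10.92 (1.07 ± 0.19, adjusted p = 0.00202), again without overlap. The heat shock list (21 genes) and the unfolded protein response of the endoplasmic reticulum (18 genes) held 0 calls, with the heat shock regulator HSF1 at 0.40 (adjusted p = 0.0172) and HERPUD1 at -0.43 (adjusted p = 0.0135). Of the 3 HSF1 probes, 2 differed by 0.62 and 0.61 and the third by −0.01. Of 34 cell cycle genes, 1 was downregulated, the replication helicase subunit MCM7 (-0.59 ± 0.15, adjusted p = 0.0187), a call lost without 50 nM replicates 1 or 3 or DMSO replicates 1, 2 or 3 (-0.61 to -0.49). The median of that list within slides was −0.60, 0.64 and −0.03, and slides 1 and 2 had opposite signs.

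**Figure D4:**
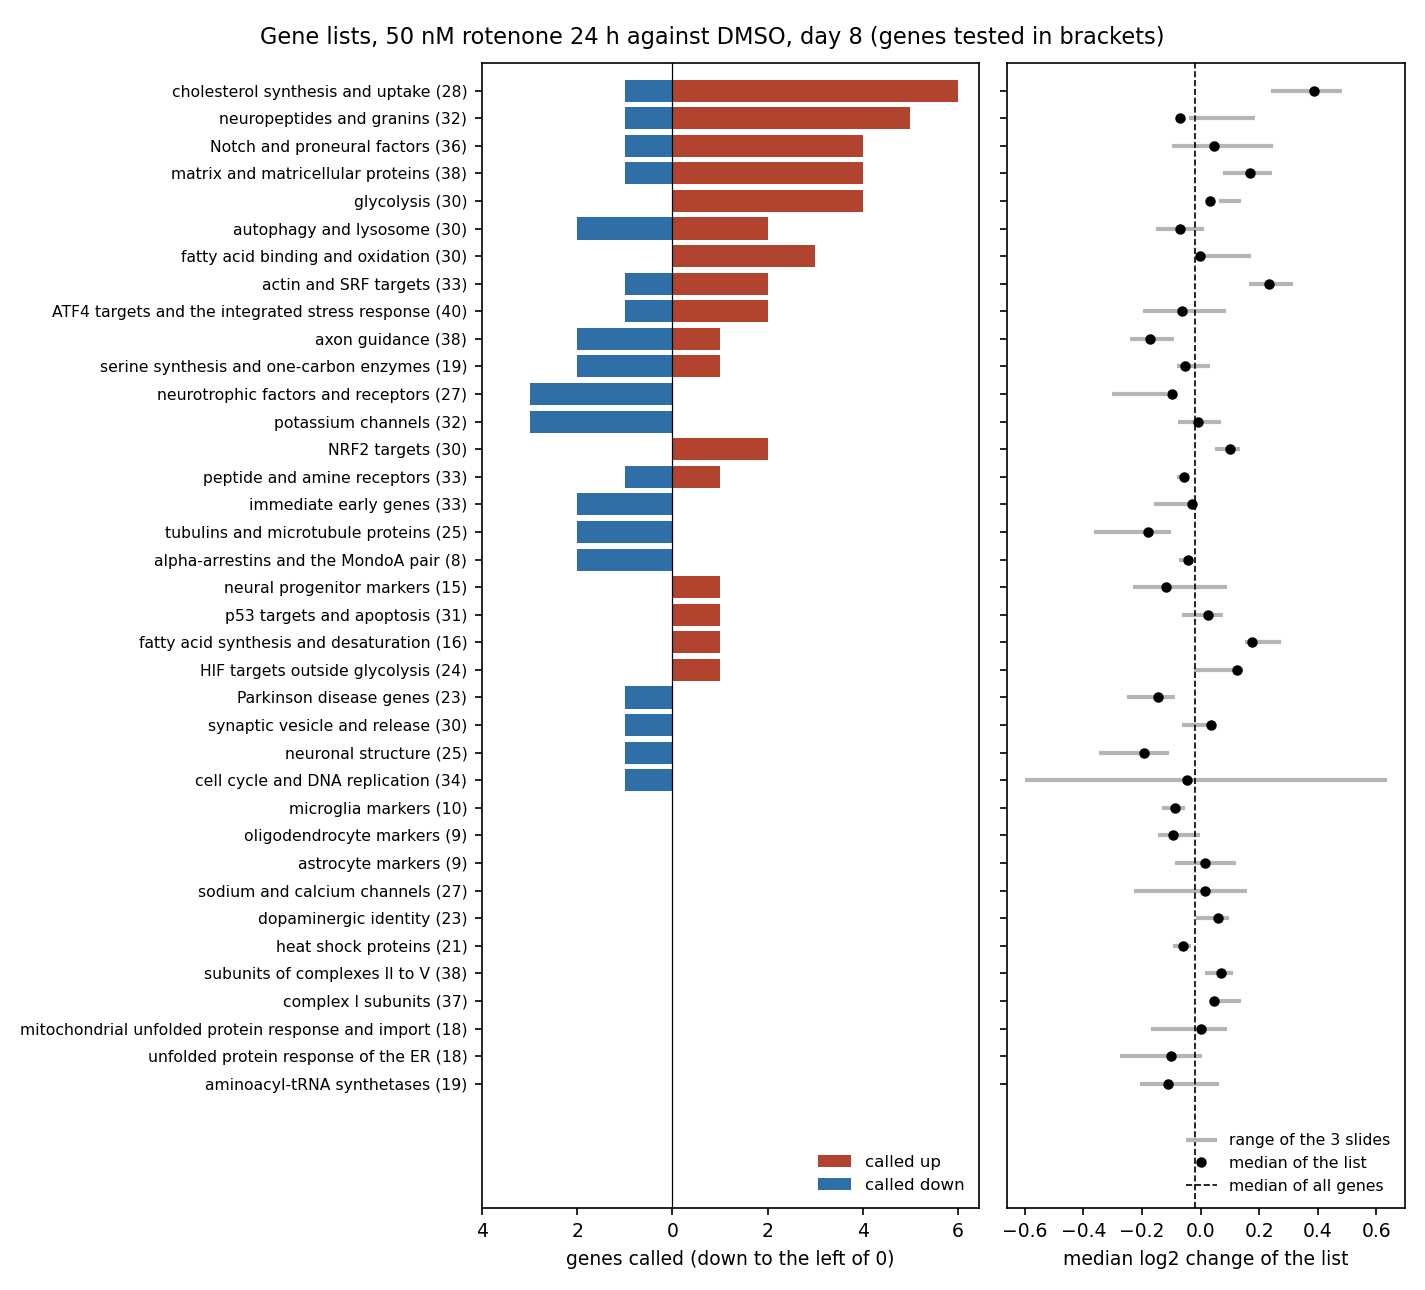
Number of genes called up (red) and down (blue) in each of 37 gene lists on the left, with the genes tested in brackets, and on the right the median log2 change of each list (points), the range of its medians within the 3 slides (gray lines) and the median of all genes (dashed line). Cholesterol synthesis and uptake has 6 genes up and the highest median, 0.39, whereas tubulins (−0.18) and neuronal structure (−0.19) have the lowest.

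Genes of neuronal shape had the lowest medians of all lists over the 3 slides together, though few were called. On slides 1, 2 and 3 the medians were −0.35, −0.11 and −0.16 for neuronal structure and −0.36, −0.10 and −0.10 for tubulins. Another list was lower than both on each slide: cell cycle on slide 1 (−0.60), axon guidance on slide 2 (−0.24) and neurotrophic factors and receptors on slide 3 (−0.30). Tubulins and microtubule proteins, the tracks of axonal transport, had a median of −0.18, 2 of 25 downregulated and 0 upregulated, and 7 lower at an adjusted p under 0.05 with any FC against 0 higher. Of all 21344 genes, 1014 were lower and 834 higher at this threshold. The called genes were the beta-tubulins TUBB2A (-0.62 ± 0.11, adjusted p = 0.00201) and TUBB4A (-0.62 ± 0.17, adjusted p = 0.0269), of which TUBB2A overlapped between groups and fell under the FC threshold without 50 nM replicate 1 (-0.50), and TUBB4A was lost without 50 nM replicates 2 or 3 or DMSO replicates 1, 2 or 3 (-0.67 to -0.50). TUBA1A was at -0.57 (adjusted p = 0.00979) and TUBB at -0.50 (adjusted p = 0.00371). Tubulin paralogs are close in sequence, so that their probes may share targets. In the list of neuronal structure, 1 of 25 genes was downregulated and 0 upregulated (median −0.19): ELAVL4, the RNA-binding protein HuD, went from 12.35, 12.47 and 12.38 to 11.52, 11.79 and 11.78, without overlap (-0.70 ± 0.10, adjusted p = 0.000281). The dendritic protein MAP2 was at -0.51 (adjusted p = 0.00189) and the intermediate filament INA at -0.49 (adjusted p = 0.00257).

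Of 23 dopaminergic identity genes tested, 0 were called and the median was 0.06. This count is near the 2.82% called over all genes and is no result about these genes. Tyrosine hydroxylase (TH), the rate-limiting enzyme of dopamine synthesis, had 9.71, 9.87 and 9.77 in DMSO and 9.70, 10.16 and 10.18 with rotenone, which overlapped (log2 change 0.23 ± 0.24, adjusted p = 0.714). Its 2 probes gave 0.40 and 0.06. The midbrain homeobox gene EN1 had the smallest p of the list (-0.41 ± 0.10, adjusted p = 0.0185), below the FC threshold, and the dopamine transporter SLC6A3 was at 0.40 (adjusted p = 0.51). Among Parkinson disease genes, PINK1, the kinase that marks damaged mitochondria, was at -0.39 (adjusted p = 0.0133). In the autophagy and lysosome list, 2 of 30 genes were upregulated and 2 downregulated. HEXA, a lysosomal hydrolase subunit, fell from 9.26, 9.23 and 9.44 in DMSO to 8.39, 8.71 and 8.68 with rotenone (-0.72 ± 0.09, adjusted p = 0.000102), without overlap. The protease CTSL, cathepsin L, rose (0.80 ± 0.12, adjusted p = 0.000619).

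Neuropeptide genes held 5 upregulated and 1 downregulated member of 32 tested, beside 1.38% and 1.44% of all genes. The median was −0.07 and was positive under 5 of 19 alternatives. GAL, the precursor of galanin, rose 1.98-fold, from 11.24, 10.60 and 10.81 in DMSO to 11.92, 11.91 and 11.79 with rotenone (0.99 ± 0.17, adjusted p = 0.00162), without overlap. The natriuretic peptide precursor NPPC (0.96 ± 0.24, adjusted p = 0.0172), the prohormone convertase PCSK1 (0.69 ± 0.20, adjusted p = 0.0378), thyrotropin-releasing hormone TRH (0.61 ± 0.13, adjusted p = 0.00709) and VGF, a granin-like peptide precursor (0.60 ± 0.16, adjusted p = 0.0239), were also called up, and PCSK1N, the inhibitor of that convertase, was called down (-0.60 ± 0.12, adjusted p = 0.00412). GAL alone of these 6 was called whichever array was left out. NPPC was lost without 50 nM replicates 1, 2 or 3 or DMSO replicates 2 or 3 (0.91 to 0.97), PCSK1 without 50 nM replicates 1 or 3 or DMSO replicates 1 or 3 (0.50 to 0.73), TRH without 50 nM replicate 1 or DMSO replicate 1 (0.49 to 0.53), VGF without 50 nM replicates 2 or 3 or DMSO replicates 1, 2 or 3 (0.52 to 0.62) and PCSK1N without 50 nM replicate 1 (-0.55). PCSK1 and VGF overlapped between groups. CCK, cholecystokinin, was well above background on 1 array of each group only, and its value was -0.43 (adjusted p = 0.416). Among 33 peptide and amine receptors, BDKRB2 was called up and the galanin receptor GALR1 called down, from 8.79, 8.91 and 8.69 to 8.11, 8.09 and 8.15 (-0.68 ± 0.13, adjusted p = 0.00385).

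Trophic receptors and their ligands were downregulated where they were called: 3 of 27, with 0 up and a median of −0.10. Over all genes, 1.44% were called down and 1.38% up. PSPN, persephin, a ligand of the GDNF family, fell 2.04-fold, from 7.71, 7.27 and 7.39 in DMSO to 6.77, 6.26 and 6.25 with rotenone (-1.03 ± 0.13, adjusted p = 0.000113). NTRK3, the receptor of neurotrophin 3, fell 1.99-fold, from 5.86, 6.26 and 6.20 to 5.23, 5.09 and 5.03 (-0.99 ± 0.11, adjusted p = 6.19e-05), and its 3 probes gave −1.15, −0.52 and −1.31. NGFR, the p75 neurotrophin receptor, fell from 12.35, 12.66 and 12.53 to 11.75, 12.08 and 11.86 (-0.62 ± 0.12, adjusted p = 0.00324). None of the 3 overlapped between groups. In axon guidance (median −0.17), SEMA3D (-0.82 ± 0.14, adjusted p = 0.00129) and the netrin gene NTN1 (-0.83 ± 0.22, adjusted p = 0.0252) were downregulated and the netrin receptor UNC5B was upregulated (0.72 ± 0.18, adjusted p = 0.0199) among 38 genes. NTN1 was lost without 50 nM replicates 1 or 2 or DMSO replicates 2 or 3 (-0.84 to -0.72) and UNC5B without 50 nM replicates 2 or 3 or DMSO replicates 1 or 2 (0.52 to 0.72). Potassium channels held 3 downregulated genes of 32: KCND2, which carries the A-type current (-0.85 ± 0.13, adjusted p = 0.000676), the background channel KCNK10 (-0.81 ± 0.22, adjusted p = 0.0274) and the G protein-gated KCNJ3 (-0.69 ± 0.19, adjusted p = 0.0292), of which KCNK10 was lost without 50 nM replicate 2 or DMSO replicates 1, 2 or 3 (-0.86 to -0.58) and KCNJ3 without 50 nM replicates 1 or 3 or DMSO replicates 1 or 2 (-0.77 to -0.41). Of 27 sodium and calcium channels 0 were called, with CACNA2D2 at -0.50 (adjusted p = 0.00096). Of 30 synaptic vesicle genes 1 was called, the calcium sensor SYT5 (-0.72 ± 0.13, adjusted p = 0.00193), which was lower. TOP2B, the topoisomerase of postmitotic neurons, was at -0.41 (adjusted p = 0.000668), below the FC threshold, with no overlap between groups.

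Among Notch and proneural genes, 4 of 36 were upregulated and 1 downregulated (median 0.04), beside 1.38% and 1.44% of all genes. The upregulated genes were MFNG, a glycosyltransferase that modifies Notch (0.81 ± 0.11, adjusted p = 0.000193), the proneural factors NHLH1 (0.66 ± 0.10, adjusted p = 0.000591) and NEUROD1 (0.61 ± 0.15, adjusted p = 0.0206), and the receptor NOTCH2 (0.60 ± 0.15, adjusted p = 0.0156). MFNG had 10.24, 10.02 and 10.39 in DMSO and 11.001, 11.11 and 10.96 with rotenone, without overlap. NHLH1 fell under the FC threshold without DMSO replicate 2 (0.58), NEUROD1 was lost without 50 nM replicate 2 or DMSO replicates 1, 2 or 3 (0.41 to 0.64) and NOTCH2 without 50 nM replicate 1 or DMSO replicates 1 or 2 (0.53 to 0.61). NEUROD6 was called down (adjusted p = 0.0187) but had no probe well above background on any array, so that no fold is given; it was lost without 50 nM replicates 1 or 3 or DMSO replicates 1 or 2 (-1.13 to -0.98). Of 15 progenitor markers, FABP7 alone was called. No member of the astrocyte (9), oligodendrocyte (9) or microglia (10) lists was called, the smallest p values being those of ALDH1L1, MBP and TMEM119 (adjusted p = 0.0765, 0.207 and 0.363).

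Some cytoskeletal and matrix genes were also called, beside 1.38% of all genes called up and 1.44% called down. Of 33 actin genes and targets of the serum response factor, 2 were upregulated, ACTA1 and FHL2, a LIM-domain coactivator (0.70 ± 0.11, adjusted p = 0.000903), and 1 was downregulated. The downregulated gene was LCP1 (L-plastin, an actin-bundling protein), which fell 2.22-fold, from 6.56, 6.73 and 6.42 in DMSO to 5.24, 5.46 and 5.57 with rotenone (-1.15 ± 0.14, adjusted p = 0.000102), without overlap. The list median was 0.23. Of 38 matrix genes (median 0.17), 4 were upregulated, TNC, the thrombospondin THBS4 (1.13 ± 0.14, adjusted p = 0.000118), the EGF-repeat protein EGFL6 (1.12 ± 0.23, adjusted p = 0.00524) and the collagen COL5A1 (0.66 ± 0.16, adjusted p = 0.0168), and the proteoglycan VCAN, versican, was downregulated (-0.78 ± 0.12, adjusted p = 0.000577). COL5A1 was lost without 50 nM replicate 3 or DMSO replicates 1 or 2 (0.58 to 0.60). THBS4 had 7.67, 7.54 and 7.73 in DMSO and 8.81, 8.69 and 8.81 with rotenone, and the other called matrix genes did not overlap between groups either. Of 33 immediate early genes, SGK1 (-0.75 ± 0.14, adjusted p = 0.0026) and EGR1 (-0.64 ± 0.15, adjusted p = 0.0151) were downregulated and 0 upregulated. SGK1 fell under the FC threshold without 50 nM replicate 2 (-0.56), and EGR1, which overlapped between groups, was lost without 50 nM replicate 3 or DMSO replicate 2 (-0.57 to -0.42). The surface glycoprotein CD200 was downregulated, from 5.57, 6.06 and 5.88 to 4.77, 4.99 and 5.18 (-0.85 ± 0.22, adjusted p = 0.023), a call lost without 50 nM replicates 1 or 2 or DMSO replicates 1, 2 or 3 (-0.91 to -0.76).

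The same 24 genes with the largest changes were followed at the other dose and time. The comparisons of the other exposures with DMSO on day 8 used the same 3 DMSO arrays, so their values are given side by side only. Raising the dose to 100 nM at 24 h, tested directly between the rotenone groups, gave 0 calls by limma among 21344 genes (0%), with 851 genes at an unadjusted p under 0.05 and 43 at an unadjusted p under 0.01 with an FC over 1.5. At the median SE of 0.17, the 95% interval of a difference between doses extended 0.36 to either side, so that small differences are not excluded. For TXNIP the difference between 100 nM and 50 nM was -0.23 (95% interval -0.52 to 0.06), for FABP3 0.15 (-0.23 to 0.54) and for TNC 0.44 (-0.20 to 1.08). Among the 24 genes, only the intervals of ARRDC4 (-0.42, -0.72 to -0.12) and C11orf96 (0.20, 0.02 to 0.39) left out 0. These intervals are not adjusted for the number of genes. Across the 24 genes the differences ran from −0.44 to 0.44. Against DMSO, 100 nM gave 728 calls (3.41%), 311 up (1.46%) and 417 down (1.95%).

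Between 12 h and 24 h of 50 nM, 52 genes differed (0.244%), 27 higher (0.126%) and 25 lower (0.117%) at 24 h. Against DMSO, 389 genes were called at 12 h (1.82%), 181 up (0.848%) and 208 down (0.975%). TXNIP and ARRDC4 were already low at 12 h (-2.62 and -2.03 against DMSO) and did not pass the test between the times (0.30, adjusted p = 0.447, and 0.33, adjusted p = 0.401). FABP3 was higher at 24 h by 1.53 (SE 0.18, adjusted p = 0.00132), with 0.65 against DMSO at 12 h. In cholesterol synthesis, 5 of 28 genes were higher at 24 h than at 12 h and 0 lower, with a median difference of 0.40, and against DMSO the list had 0 calls and a median of 0.04 at 12 h. Among them were ACAT2 (0.90, adjusted p = 0.00132), LSS (0.75, 0.00276), FDFT1 (0.68, 0.00208) and STARD4 (0.67, 0.0396). At 24 h of 100 nM the list had 3 calls up and a median of 0.32 against DMSO. BLVRB and ACSS2 were also higher at 24 h than at 12 h (0.64 and 0.72, adjusted p = 0.0417 and 0.00854). KCND2, SYT5, NTRK3 and TRAIP were lower at 24 h (-0.87, -0.65, -0.62 and -0.71, adjusted p = 0.00665, 0.0344, 0.0202 and 0.0328). The count of 52 genes was 4 without the slide as a block and 24 without 50 nM replicate 2.

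**Figure D5:**
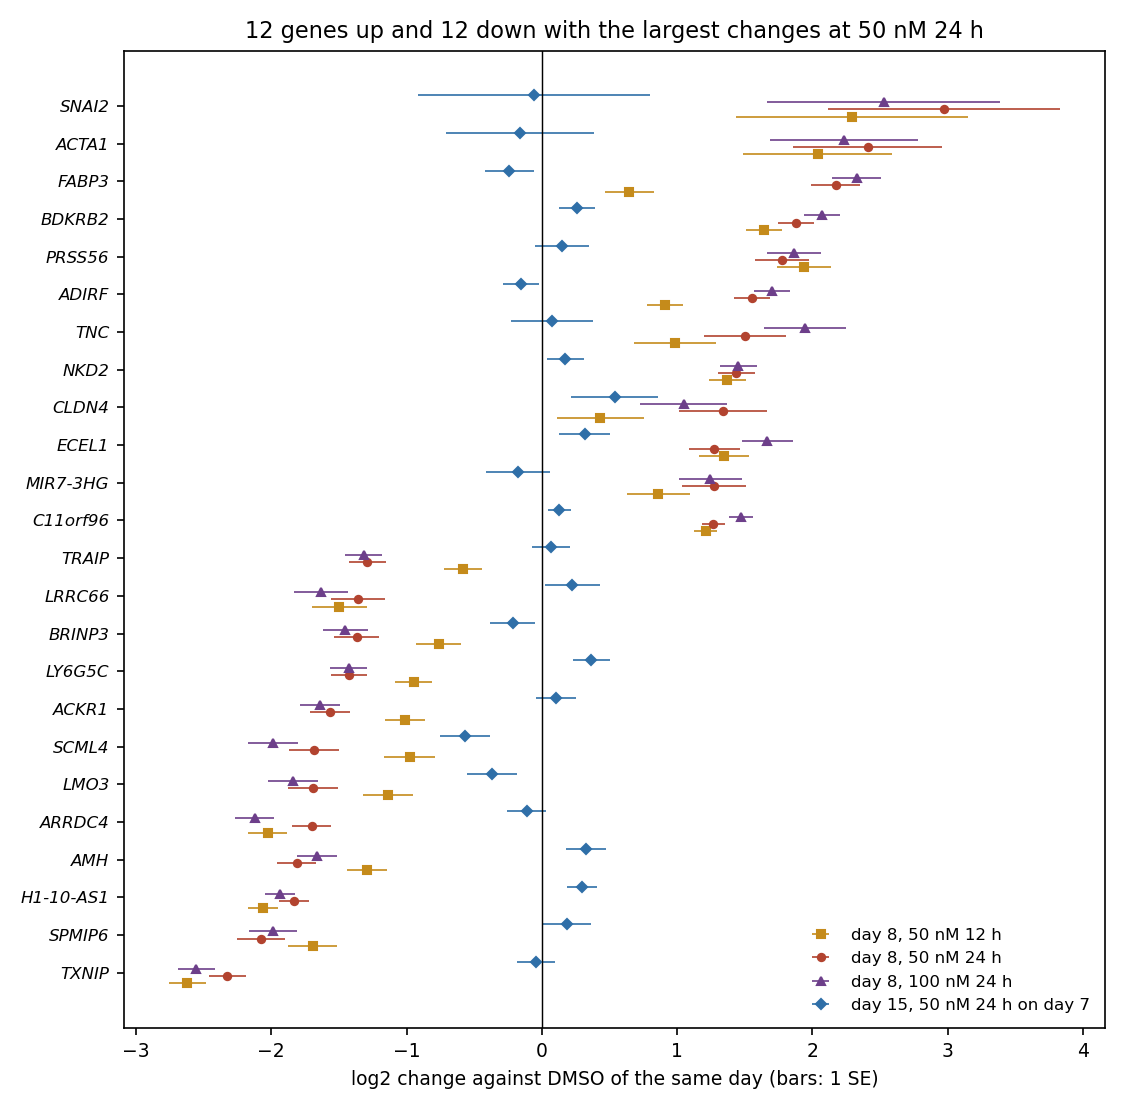
Log2 change against DMSO of the same day (x axis, bars are 1 SE) of the 12 genes up and the 12 genes down with the largest changes at 50 nM for 24 h. The day 8 exposures share their DMSO arrays; FABP3 is at 0.65 at 12 h and 2.17 at 24 h of 50 nM, and on day 15 TXNIP is at -0.04 and FABP3 at -0.24.

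Samples of day 15, exposed to the same 50 nM for 24 h on day 7 and washed, had 0 calls against their own DMSO arrays by limma (0%), with 774 genes at an unadjusted p under 0.05. The difference between the day 8 and the day 15 change, which shares no control array, passed for 377 genes (1.77%), 167 with a higher (0.782%) and 210 with a lower (0.984%) change on day 8. This count was 62 without the slide as a block, 599 with the processed signal, 231 without DMSO replicate 3 and 237 without 50 nM replicate 1. TXNIP was at -0.04 on day 15 (SE 0.14), and its change differed between days by -2.28 (adjusted p = 3.15e-05). FABP3 was at -0.24 on day 15, a difference of 2.42 (adjusted p = 0.000224). The cholesterol list had a median of −0.05 on day 15 and 6 of its 28 genes passed the test of the difference, all higher on day 8. The group of 1 of the day 15 DMSO arrays, replicate 1, rests on its label, since the name of its scan does not name DMSO. Without it, 411 genes differed between the days, 306 of them among the 377, and day 15 alone had 1 call. For TXNIP the difference was then -2.15 (adjusted p = 0.000136) and for FABP3 2.46 (adjusted p = 0.000616).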

How the data were processed

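Total RNA of LUHMES aggregates was hybridized to Agilent single-color arrays, 3 for each of 8 groups. The authors deposited the intensity of each of 62976 spots as the scanner software gave it (Feature Extraction 11.5.1.1 per the labels, 12.0.0.7 in the files of slide 2), with the local background intensity, the software's processed signal and other columns that mark outliers and spots well above background. The authors also deposited their normalized log2 values in a further file, used as an alternative. The labels name R 3.5 and the methods R 3.4.2 for the authors' processing.

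Here the median signal was corrected with normexp (offset 0) and quantile normalized over the 24 arrays with limma 3.58.1 under R 4.3.3 (the package data.table, version 1.17.8, jsonlite 2.0.0). Spots were kept if above 1.1 times the 95th percentile of 308 negative controls on at least 3 arrays. Flagged values were set to missing and saturated spots, of which the 24 arrays held 0, would have been kept. Spots of a probe, then probes of a gene, were averaged. Accessions matched RefSeq symbols (GRCh38.p14) for 30275 of 50599 probes, and the array design uses another build, so that no probe coordinates are given. Of the 111 genes that the rule below names, 84 had a promoter in the RefSeq table. Motif searches and figures used Python 3.11.15, pandas 2.3.3 and matplotlib 3.10.9.

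All 24 arrays entered 1 limma fit with the group and the slide (14 residual and 2.20 prior degrees of freedom). A gene was called at an FC over 1.5 and a two-sided Benjamini-Hochberg adjusted p under 0.05 over 21344 genes. Changes are log2 differences ± SE with 3 arrays a group. The number of arrays limits the precision, and the median SE was 0.17. Replicate numbers pair the samples: in each of 84 pairs of arrays that share a slide, the residuals after removal of group means had a correlation of at least 0.171 (median 0.458). The median for 168 pairs from different slides was −0.354. Residuals of a group sum to 0 over its 3 arrays, so this negative value follows from the positive one and is no separate evidence. The comparisons of doses, times and days are contrasts of the same fit. The authors' batch correction by ComBat was an alternative. The code was tested on simulated data.

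The comparison and the gene lists were chosen with earlier results of these data known. Lists are described by counts and medians, with no test. Genes named are the 12 up and 12 down with the largest changes that were called, had the same sign on each slide and were well above background by some probe on each of the 6 arrays, LOC and LINC symbols left out; the called members of each list or, where none was called, the one with the smallest p; the 4 up and 4 down with the largest bound among those below background in 1 group; and TXNIP, ARRDC4, GDF15, ATF4, DDIT3, TH, TOP2B, CCK, ACTA1, CD200 and LCP1. Other list members are given by value where they define a step. Some members of the lists are counted but not reported here by name.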

Additional observations from a re-analysis of the deposited data

Results flagged for a closer look

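Of the 24 genes with the largest changes, 19 had a change on day 8 that differed from that on day 15, by a test of the difference itself in the limma fit, at an adjusted p under 0.05 with any FC. Over all genes tested, 2.53% passed at this threshold. The 24 genes were chosen for their change on the same day 8 arrays, which favours a difference, so the count of 19 is a description. The differences (day 8 minus day 15, log2) of the genes that were lower on day 8 were -2.28 for TXNIP, -2.26 for SPMIP6, -2.14 for AMH, -2.13 for H1-10-AS1, -1.79 for LY6G5C, -1.67 for ACKR1, -1.59 for ARRDC4, -1.58 for LRRC66, -1.36 for TRAIP, -1.32 for LMO3, -1.15 for BRINP3 and -1.12 for SCML4. Their adjusted p values ran from 4.82e-06 (H1-10-AS1) to 0.0324 (SCML4). Those of the genes that were higher on day 8 were 2.42 for FABP3, 1.71 for ADIRF, 1.63 for PRSS56, 1.62 for BDKRB2, 1.45 for MIR7-3HG, 1.26 for NKD2 and 1.14 for C11orf96, with adjusted p values from 0.000224 (FABP3) to 0.0296 (MIR7-3HG). Without day 15 DMSO replicate 1, SCML4 no longer passed (-1.09, adjusted p = 0.0618), and the other 18 did. SNAI2, ACTA1, TNC, ECEL1 and CLDN4 did not pass the test of the difference.

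Between 24 h and 12 h of 50 nM, 3 of the 24 genes differed at an adjusted p under 0.05 with any FC, beside 0.558% of all genes, and the choice of the genes rests on the same 24 h arrays. FABP3 differed by 1.53 (adjusted p = 0.00132), TRAIP by -0.71 (adjusted p = 0.0328) and ADIRF by 0.64 (adjusted p = 0.0431).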

How the results depend on the processing

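Of 95 called genes that fall under the naming rule, 37 were called under all 19 alternatives except the fit on the 6 arrays of the comparison alone, which leaves 0 calls and 4034 genes at an unadjusted p under 0.05. Over 2100 values of named genes, 2 reversed, both of ATF4: 0.01714 with the processed signal and 0.03526 when arrays were scaled by their 75th percentile, against -0.24. The count of called genes, 602, was 332 with no replicate block, 330 with a normexp offset of 50, 401 on slides 2 and 3 only, 1848 with any FC and 101 at an FC over 2. Leaving out 1 array gave 528 to 575. The count of genes that differed between 24 h and 12 h, 52, was 4 with no replicate block, 93 with the processed signal and 24 to 43 on leaving out 1 array, with 24 without 50 nM replicate 2, 27 without 50 nM replicate 3. Between 100 nM and 50 nM it was 0 to 2 on leaving out 1 array, with 2 without 50 nM replicate 1. The count of genes whose change differed between days, 377, was 62 with no replicate block, 599 with the processed signal and 231 to 296 on leaving out 1 array of day 8, with 231 without DMSO replicate 3 and 237 without 50 nM replicate 1. It was 411 without day 15 DMSO replicate 1, a choice made after the data were seen. The causes were not tested. ComBat in place of the block gave 595 calls, the deposited values 535 and the brightest probe of a gene 712. Leaving out spots with an outlying local background, an alternative chosen after the data were seen, gave 603. Genes near background rest on few arrays, which limits what their signal can show.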

Other observations

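The genes below were picked after their values were seen, so they stand as single values and say nothing of the groups they belong to. Genes called down included the RNA helicases DDX17 (-1.28 ± 0.10, adjusted p = 1.78e-06) and DDX5 (-0.73), the splicing factors SRSF3 (-0.73), SRSF2 (-0.64), SRSF10 (-0.61) and SFPQ (-0.84), HNRNPM (-0.72), HNRNPA2B1 (-0.69) and EWSR1 (-0.85). DDX17 had 9.63, 10.30 and 9.80 in DMSO and 8.61, 8.85 and 8.44 with rotenone. The LIM-domain genes LMO1 (-1.25 ± 0.10, adjusted p = 2.99e-06), ISL2 (-1.17 ± 0.21, adjusted p = 0.00226), LHX2 (-0.81) and LHX9 (-0.77) were also called down, whereas the LIM-domain gene FHL2 was called up (0.70). LMO1 had 9.39, 9.59 and 9.59 in DMSO and 8.07, 8.26 and 8.48 with rotenone.

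Genes called up outside the lists included the cytokine IL11 (1.18 ± 0.17, adjusted p = 0.000347), the forkhead factor FOXS1 (1.17 ± 0.24, adjusted p = 0.0048), the metallothionein MT2A (0.81 ± 0.16, adjusted p = 0.00412) and ODC1, the first enzyme of polyamine synthesis (0.71 ± 0.10, adjusted p = 0.000286). MT2A was higher at 24 h than at 12 h by 0.76 (adjusted p = 0.0442). The calcium-binding proteins S100A4 and S100A6 were also higher at 24 h than at 12 h, by 0.90 and 0.67 (adjusted p = 0.0127 and 0.00665), and HSPA5, the chaperone BiP, was lower at 24 h, with a difference of -0.63 (adjusted p = 0.00294).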
